A study of Homo sapiens with 7 samples.

Results

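The elements Seq_12001 to Seq_20000 form a consecutive range of the library of a lentiviral massively parallel reporter assay. They were taken by their number alone, in both orientations, and a copy (1 sequence in 1 orientation) was kept when each DNA library held at least 10 counts of it. Of 15703 listed copies of 7879 sequences, 15580 copies passed, out of 134435 that passed in the whole series, and 7750 sequences passed in both orientations, out of 66769. The study tested hypotheses on ChIP-seq signal and transcription factor binding. It placed elements of 170 nucleotides, synthesized with flanks of 15 nucleotides, ahead of a minimal promoter and a transcribed barcode in HepG2, an established human liver carcinoma cell line. Virus was made in 293FT cells, a human embryonic kidney line used for packaging, and HepG2 cells were harvested 48 hours after infection. The DNA and RNA libraries came from HepG2 cells for which the labels give no treatment but the virus, with 8 wells for each replicate. There were 3 DNA libraries, 3 RNA libraries and 1 plasmid library that tied barcodes to elements.

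In this assay the integrated DNA of a barcode measures how many copies of a construct reached the cells, and its RNA measures how often the construct was transcribed. An enhancer is a DNA segment that raises transcription from a promoter when transcription factors bind it, and it is known for acting in either orientation. A promoter sets the direction of transcription and can depend on its orientation. HepG2 cells keep many transcription factors of hepatocytes and are widely used to study liver regulatory elements. Here the number is the only label of an element. The bases, positions and design classes behind the numbers were not analysed here, so no element is placed in the genome or near a gene.

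The sequences at hand are those of the barcodes. The members carried 1429720 barcodes of 15 bases, with a median of 85 for each listed copy (quartiles 59 and 117, range 1 to 348). Their bases were unequal, with 32.1% A, 24.8% C, 14.2% G and 28.8% T. G was the least frequent base in the pool as a whole, and at single positions it made up 11.4% to 15.0%. Shown first are the barcodes of 3 copies whose values at the ends of the range rested on a single barcode, in lower case and 5′ to 3′ as the deposited table writes them.
Seq_16169_fwd: atcacagtccacatg
Seq_13427_fwd: ctagcgacgccgatt
Seq_17075_rev: cgactgacgtttact

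Seq_16169_fwd was the lowest member, and Seq_13427_fwd was among the lowest of its block. Seq_17075_rev was called 8-fold higher, and was picked out after its value was seen. None of the 3 was averaged over several barcodes, so an effect of the barcode or of its few integration sites cannot be told apart from the element's own. All counts of the 68 members with 1 barcode were even numbers in all 6 libraries. Odd counts made up 41.2% of those of the 34 members with 2 barcodes and 54.8% of those with 3 barcodes. What makes these counts even was not tested, so the number of molecules behind them is not known.

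Barcodes can also resemble each other. Of the members' barcodes, 6040 (0.422%) differed by a single base from another barcode of the same copy, and such pairs occurred in 2474 copies (15.8%). The copy with the largest share of them among those with 10 or more barcodes was Seq_19827_fwd, with 6 of 20, picked out after its barcodes were seen. The other sequences shown differ from the central one at a single position, and capitals mark the bases that differ between neighbours.
Seq_19827_fwd, central: aAccAggAggccAtc
Seq_19827_fwd, neighbour: aCccaggaggccatc
Seq_19827_fwd, neighbour: aaccGggaggccatc
Seq_19827_fwd, neighbour: aaccaggCggccatc
Seq_19827_fwd, neighbour: aaccaggGggccatc
Seq_19827_fwd, neighbour: aaccaggaggccCtc

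Whether barcodes so alike are separate ones was not tested, so the number of listed barcodes may exceed the number of separate ones. Counts are summed over the barcodes of a copy in the deposited tables. Seq_19827_fwd had DNA counts of 279, 216 and 169 and RNA counts of 1144, 1226 and 1160. Its log2 RNA/DNA was 1.30 (SE 0.11), and that of its reverse copy, on 34 barcodes, was 1.46 (SE 0.11).

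Total counts ran from 34860651 to 44258011 in DNA and from 108324310 to 114738370 in RNA. The members took 11.4% to 11.6% of the DNA counts and 15.3% of the RNA counts of a library. A tested member had a median of 291, 230 and 232 counts in the DNA libraries and of 816, 784 and 774 counts in the RNA libraries, replicates 1 to 3. Nothing in the labels says whether the replicates were separate infections, so the errors and p-values cover the spread among the libraries at hand, and that spread may be technical. The median standard error of a member's log2 RNA/DNA was 0.11, and the median SD of its log2 ratio between replicates was 0.14 (n = 3). That SD was 0.22 for the 161 tested members with 1 to 9 barcodes, 0.15 for the 7063 with 50 to 99 and 0.10 for the 391 with 200 or more.

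Copies below the DNA filter were few and poorly covered. They numbered 123, of which 113 had 9 or fewer barcodes. Just outside the threshold, 8 copies had a lowest DNA count of 9, and their signal in the authors' deposited table ran from 0.26 to 1.98 with a median of 0.42. Just inside it, 9 copies had a lowest DNA count of 10, with a deposited signal of -0.71 to 2.41 and a median of 0.11. The deposited signal is the log2 of RNA over DNA of the pooled replicates. Of 8000 numbers, 121 had no listed copy, with 29, 27, 40 and 25 in the 4 blocks of 2000. A further 23 were listed only forward and 32 only reverse.

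The first comparison asked which members raised barcode RNA over integrated DNA. RNA was called higher than DNA for 9853 of 15580 members (63.2%), against 35.2% of all copies tested in the series, and lower for 1573 (10.1%), against 32.2%. Calls are from edgeR's quasi-likelihood test at an adjusted p under 0.05, fitted over all copies of the series. RNA/DNA is relative to the centre that TMM sets over all copies, not to inactive elements. With library size alone 6869 of 15580 members were called higher, fewer than those not called higher, and 4657 lower, so the share of calls that were higher moved from 86.2% to 59.6%. That scaling moved the median of all tested copies from -0.04 to -0.47, a shift of -0.43, and the values below are relative to the TMM centre. A member is called active below when it was called and at least 2-fold higher, and 4781 members (30.7%) were active, against 17.7% in the series. At least 4-fold higher were 593 members (3.81%, series 2.18%), and at least 8-fold higher 36 (0.231%, series 0.179%). At least 2-fold lower were 14 members (0.0899%, series 0.488%), and this count was 31 without replicate 1, 24 without replicate 2 or replicate 3 and 23 without DNA replicate 3 alone.

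The members thus lay above the rest of the library as a group. Their median log2 RNA/DNA, taken in each replicate with a pseudocount of 1 CPM, was 0.47, 0.48 and 0.48, while the rest of the series had -0.07, -0.07 and -0.05. The difference was 0.54 ± 0.01 (SD, n = 3), with no overlap between the replicates of the 2 sets. Both sets come from the same libraries, and 3 replicates allow no two-sided exact sign-flip p below 0.25. The fitted values of the middle 90% of members ran from -0.46 to 1.90, with quartiles of 0.05 and 1.15. The SD among members was 0.75, several times the median standard error, so members differed from each other by far more than a member's error.

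The second comparison set 4 consecutive blocks of 2000 numbers side by side, by the share of sequences active in both orientations. The share was 22.8% (442 of 1935 sequences) in the first block, Seq_12001 to Seq_14000, and 20.8% (399 of 1922) in the second block, Seq_14001 to Seq_16000. It was 26.1% (506 of 1942) in the third block, Seq_16001 to Seq_18000, and 21.7% (424 of 1951) in the last block, Seq_18001 to Seq_20000. The series as a whole had 13.6%, and the members together 22.9% (1771 of 7750). The third block had the highest share and the second block the lowest in all 13 fits compared, and the first block was above the last in all 13 as well. With library size alone the shares were 9.72%, 8.06%, 12.8% and 9.58% in the order of the blocks.

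The same shares were taken within each replicate, counting sequences whose log2 ratio was at least 1 in both orientations, which is a stricter measure because of the pseudocount. In the first block the replicates gave 17.9%, 17.6% and 17.6%. In the second block they gave 13.5%, 14.4% and 14.2%, all below those of the block before. In the third block they gave 21.2%, 21.0% and 19.9%, the highest of the 4 blocks in every replicate. The last block gave 18.0%, 17.3% and 16.4%, which overlap those of the first block.

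Differences between the blocks were small beside the spread among sequences, and in 5 of 6 pairs of blocks the share by replicate differed in the same direction in all 3 replicates. The pseudocount lowers these shares more where counts are low, and median counts in DNA replicate 1 were 291, 284, 279 and 308 by block. The last block minus the second block was 3.23 ± 1.18 points by replicate (SD, n = 3), while the fitted shares were 21.7% and 20.8%. By replicate the third block exceeded the second block by 6.67 ± 0.98 percentage points (SD, n = 3), in 3 of 3 replicates. Their fitted shares were 26.1% and 20.8%. The last block minus the third block was -3.17, -3.63 and -3.53 points in replicates 1 to 3. The last block minus the first block was -0.45 ± 0.69 points (SD, n = 3), with the sign turned in replicate 1, so this difference was within the replicate spread. These errors describe the libraries and not the choice of sequences in a block. Membership of a block accounted for 0.636% of the variance of the sequences' mean activity.

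The medians gave another order than the shares. The median log2 ratio was 0.41 ± 0.02 in the first block, 0.47 ± 0.01 in the second block, 0.55 ± 0.01 in the third block and 0.47 ± 0.01 in the last block (SD, n = 3). The block with the lowest median was therefore not the block with the fewest active sequences. The first block had the widest quartile range, with fitted quartiles of -0.04 and 1.14. Its SD among copies was 0.77, and that of the third block was 0.78. The second block had the narrowest range, with quartiles of 0.08 and 1.11 and an SD of 0.69. Called lower were 531 copies (13.6%) in the first of these and 370 (9.55%) in the second, with 304 (7.80%) and 368 (9.40%) in the later blocks. At least 4-fold higher were 122 (3.13%), 81 (2.09%), 231 (5.92%) and 159 (4.06%) copies in the order of the blocks, against 2.18% in the series. At least 8-fold higher were 9 (0.231%), 4 (0.103%), 20 (0.513%) and 3 (0.0766%), against 0.179%. The second block thus lay below the series by both measures, and the last block by the second measure.

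Shorter windows varied more than the blocks. In 80 windows of 100 numbers, the share of sequences active in both orientations ran from 5.15% in the window that starts at 16401 to 42.7% in the window that starts at 12101, with a median of 21.9%. From the running values of activity and barcode number, 7 stretches were marked by eye after the values were seen, and they are given as a description with no test. Their medians are of the fitted value averaged over both orientations, not of the ratios by replicate with a pseudocount used for the block medians above. On the fitted scale the blocks had medians of 0.46, 0.55, 0.64 and 0.53 in their order.

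The highest stretch was the first. Seq_12001 to Seq_12180 had a median log2 RNA/DNA of 1.06, and 43.4% of 173 sequences were active in both orientations. By replicate that share was 34.7%, 36.4% and 35.3%. Over the 2000 numbers before it, Seq_10001 to Seq_12000, the share was 47.2%. From 12181 to 14000 the median was 0.41 and the share 20.8% of 1762 sequences (replicates 16.3%, 15.7% and 15.9%). The next block had the same fitted share of 20.8%, but its replicates (13.5%, 14.4% and 14.2%) all lay below these.

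The values of the next stretches lay close together. From 14001 to 16000 the median was 0.55 and the share 20.8%. From 16001 to 16400 the median was 0.60 and the share 22.2% of 383 sequences. The lowest stretch followed, from 16401 to 16560, with a median of 0.18 and a share of 8.39%, or 13 of 155 sequences. Its replicates gave 3.87%, 6.45% and 5.16%, all below every replicate of the other stretches. The pseudocount lowers the shares by replicate more where counts are low, and median DNA counts were lowest in this stretch (202 in DNA replicate 1). It held 1 copy that was at least 4-fold higher of 311 tested.

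The last steps came near 16561 and 18501. From 16561 to 18500 the median was 0.72 and 29.8% of 1886 sequences were active in both orientations, with replicates of 26.2%, 25.3% and 23.8%. This stretch held 303 copies at least 4-fold higher (8.01% of its 3785 copies) and 22 of the 36 copies at least 8-fold higher. From 18501 to 20000 the median was 0.46 and the share 18.4% of 1469 sequences (replicates 14.2%, 13.8% and 13.3%). The last block joined parts of both: its first 500 numbers had a share of 32.0% and its last 500 had 18.2%. The first stretch had the highest share and that of 16401 to 16560 the lowest in all 13 fits. The stretches were marked on these same counts, so neither this order nor that of their replicates is a test of them.

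Barcode number, which the activity values do not use, moved with some of these steps and not with others. It was also used in marking the stretches, so its changes at their edges are no separate result. A copy had a median of 71 barcodes in Seq_12001 to Seq_12180 and of 90 in numbers 12181 to 14000. It had 84 in the second block and 61.5 in numbers 16001 to 16400, where activity did not fall. It was lowest, at 52, in numbers 16401 to 16560, and 87 in numbers 16561 to 18500. Reverse copies had more barcodes than forward copies in the members as a whole (medians 90 and 82), and in the low stretch they had fewer (51 and 54). Median counts in DNA replicate 1 moved along, with 202 in numbers 16401 to 16560 and 300 in numbers 16561 to 18500. Over the 80 windows, which share libraries and cloning, the Pearson correlation of median barcode number with median activity was -0.13 and the Spearman correlation -0.27. Without the 2 windows that start in the low stretch, the Pearson correlation was -0.32 over 78 windows. By copy, the share of active members was 41.6% with 1 to 9 barcodes, 34.3% with 10 to 49 and 30.1% with 50 to 99. It was 29.7% with 100 to 199 barcodes and 27.9% with 200 or more. The part of barcode number in these activity values was not tested.

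Neighbouring numbers were nearly unrelated in activity. Over 7509 pairs of adjacent sequences, the mean activity of both orientations correlated with r = 0.04 (Spearman 0.03). Over 13 distances from 1 to 100 numbers, r ran from 0.00 to 0.06. Adjacent pairs gave 0.50 in numbers 6001 to 8000, 0.36 in numbers 20001 to 22000 and 0.87 in numbers 64001 to 66000, by the same measure in the same libraries. At a distance of 100 numbers r was 0.33, 0.32 and -0.005 in the same order. In the first and second of these parts the correlation was therefore not confined to adjacent numbers. Odd and even numbers had medians of 0.56 and 0.54 and shares active in both orientations of 22.4% and 23.3%. These values are descriptions, since sequences are not replicates.

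Runs of active neighbours were short. The longest run of consecutive listed numbers active in both orientations had 8 sequences, from 12156 to 12164, within the first stretch. Their log2 RNA/DNA ran from 1.01 to 2.21 over both orientations. The longest runs of the other blocks were 6 sequences from 14800 to 14806, 5 from 16874 to 16878 and 5 from 17846 to 17850, and 5 from 18025 to 18029.

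The strongest members acted in both orientations. Seq_17069_rev, on 171 barcodes, had DNA counts of 782, 597 and 915 and RNA counts of 26058, 25354 and 22825 in replicates 1 to 3. RNA exceeded DNA in every replicate by far more than either varied. Its log2 RNA/DNA was 3.89 (SE 0.13, adjusted p = 1.82e-22 by edgeR), a 14.8-fold excess, and it ranked 23 among 134435 copies of the series. Seq_17069_fwd, on 147 barcodes, had DNA counts of 418, 319 and 447 and RNA counts of 12061, 10023 and 10621, for a value of 3.66 (SE 0.11). Forward minus reverse was -0.22 (SE 0.18), which edgeR did not call (adjusted p = 0.344). Seq_17111_rev stood between them at 3.78 (SE 0.13), with DNA counts of 414, 340 and 514 and RNA counts of 13961, 12637 and 11473. Its forward copy reached 3.53 (SE 0.11).

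DNA replicate 3 was the highest of the DNA libraries at these copies. Without it the values of Seq_17069_rev, Seq_17111_rev and Seq_17069_fwd were 4.10, 4.01 and 3.82. Over the 36 members at least 8-fold higher, DNA replicate 3 stood above DNA replicate 1 by a median log2 of 0.40, scaled by library totals, against -0.02 over the 3504 members below 0. These groups were formed with the same DNA counts. What raised this library there was not tested.

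Each of the other blocks had a leading sequence of the same kind. In the first block the highest copy was Seq_12948_fwd at 3.45 (SE 0.10), with DNA counts of 339, 258 and 307 and RNA counts of 7677, 6437 and 7413. Its reverse copy was at 3.29 (SE 0.10). Next came Seq_13071_rev at 3.42 (SE 0.11) and Seq_12478_rev at 3.40 (SE 0.11), and Seq_13071 was the sequence of this block with the highest value in its lower orientation, at 3.39. All copies of these 3 sequences were called at least 8-fold higher.

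In the second block the highest copy was Seq_14037_rev at 3.18 (SE 0.11), on 26 barcodes, with DNA counts of 106, 112 and 103 and RNA counts of 2369, 2080 and 1901. Its forward copy, on 20 barcodes, was at 2.70 (SE 0.09). Seq_15042 reached 3.17 (SE 0.10) forward and 3.09 (SE 0.09) reverse. It was the only sequence of the block called at least 8-fold higher in both orientations. In the last block Seq_18552_rev led at 3.18 (SE 0.10), with DNA counts of 372, 290 and 406 and RNA counts of 7378, 6817 and 6987. Then came Seq_18311_fwd at 3.16 (SE 0.15) and Seq_18318_fwd at 3.06 (SE 0.10). No sequence of that block was at least 8-fold higher in both orientations, and Seq_18049 came closest, at 2.95 (SE 0.10) and 2.82 (SE 0.10).

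The 36 members at least 8-fold higher belonged to 25 sequences, and 11 of these had both copies in the list, 0.142% of the sequences tested against 0.117% in the series. Forward copies made up 22 and reverse copies 14. Of the other 14 sequences, 1 had no tested partner. The lower copy of the remaining 13 was never below 2.51. The sequence with no tested partner was that of Seq_17075_rev, the copy on 1 barcode shown above. It had DNA counts of 22, 36 and 26 and RNA counts of 744, 648 and 490, for a value of 3.35 (SE 0.20).

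The low end reached less far from the centre. Apart from copies on 1 barcode, the lowest member was Seq_12657_rev, on 51 barcodes, with DNA counts of 274, 229 and 265 and RNA counts of 265, 203 and 190. RNA libraries were deeper than DNA libraries, so like counts mean a lower RNA share. Its log2 RNA/DNA was -1.35 (SE 0.15, adjusted p = 4.9e-10 by edgeR), a 2.55-fold deficit. Its forward copy was at -0.72 (SE 0.20).

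The 2 copies on 1 barcode had wider errors. Seq_16169_fwd had DNA counts of 18, 18 and 14 and RNA counts of 14, 6 and 6, for -2.05 (SE 0.56, adjusted p = 0.00176 by edgeR). Seq_13427_fwd had DNA counts of 38, 34 and 34 and RNA counts of 22, 44 and 34, for -1.20 (SE 0.36, adjusted p = 0.00381 by edgeR). By limma on values with a pseudocount of 1 CPM they were at -0.34 and -0.42, since the pseudocount draws rare copies to 0.

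The remaining low copies were alike across blocks. Seq_13187_rev was at -1.06 (SE 0.15), Seq_15391_rev at -1.01 (SE 0.13), Seq_16397_rev at -1.02 (SE 0.16), Seq_16391_rev at -1.01 (SE 0.11) and Seq_19634_rev at -1.04 (SE 0.14). Seq_19385_fwd, with DNA counts of 1016, 729 and 853 and RNA counts of 925, 757 and 829, was at -1.17 (SE 0.09). Seq_15059_rev, Seq_15621_rev and Seq_19951_rev closed the list at -0.96 (SE 0.09), -0.95 (SE 0.14) and -0.94 (SE 0.10). Of the 12 lowest copies named, 9 were reverse copies. Among all members the reverse copy was also called the lower one more often (24.5% of sequences) than the forward copy (11.0%). All 12 lay below the TMM centre in all 3 replicates, which their choice as the lowest called copies favours.

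Sequences low in both orientations were few. Called lower in both were 265 of 7750 (3.42%), against 17.6% in the series, with 108, 62, 43 and 52 in the order of the blocks. Called higher in both were 4238 (54.7%), against 29.2%, and at least 4-fold higher in both 159 (2.05%), against 1.25%. The sequence with the lowest value in its higher orientation was Seq_12677 in the first block, at -0.93 (SE 0.15) forward on 149 barcodes. Its reverse copy, on 133 barcodes, had DNA counts of 268, 270 and 217 and RNA counts of 266, 283 and 273. In the other blocks it was Seq_15053, at -0.84 (SE 0.15) and -0.79 (SE 0.36) on 6 and 3 barcodes, Seq_16486, at -0.66 (SE 0.24) and -0.76 (SE 0.20), and Seq_19925, at -0.92 (SE 0.20) and -0.84 (SE 0.15). The reverse copy of Seq_15053 was not called.

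The third comparison set the 2 orientations of each sequence against each other. Over the 7750 sequences, forward and reverse values correlated with a Pearson r of 0.83, and a Spearman rho of 0.82. By block r was 0.85, 0.79, 0.84 and 0.81. Of 2479 sequences active forward, 71.4% were also active in reverse (series 74.0%), and of 2270 active in reverse, 78.0% were active forward (series 80.3%). The share of sequences active in only 1 orientation was 9.14% forward (series 4.80%) and 6.44% reverse (series 3.34%). Forward-only sequences were 142, 186, 181 and 199 in the order of the blocks, so the first block, with the widest quartile range, had the fewest.

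Among called differences, more were in favour of the forward copy. By edgeR's interaction test the forward copy was higher in 1899 sequences (24.5%), against 24.7% in the series, and the reverse copy in 855 (11.0%), against 7.68%. Leaving out replicate 2 gave 1234 and 552, and leaving out replicate 1 gave 1312 and 569. At least 2-fold differences were called for 164 sequences forward (2.12%, series 2.24%) and 57 reverse (0.735%, series 0.662%). Of these, 27, 47, 34 and 56 were forward and 16, 14, 14 and 13 reverse in the order of the blocks. The forward shares were thus near those of the series.

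The median forward minus reverse difference of the members was 0.08, 0.10 and 0.12 log2 in replicates 1 to 3, and that of the rest of the series 0.14, 0.16 and 0.16. The 2 sets did not overlap. By the fit the medians were 0.15, 0.13, 0.13 and 0.12 in the order of the blocks. By stretch it was lowest in Seq_12001 to Seq_12180 (0.08) and highest in numbers 16401 to 16560 (0.21), the most and the least active stretches. The stretches were marked by eye from activity and barcode number, and whether this difference follows activity was not tested. Each orientation has its own set of barcodes, and their part in the difference of any single sequence was not tested.

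The largest forward excess was that of Seq_17250. Its forward copy had DNA counts of 492, 327 and 421 and RNA counts of 2401, 2291 and 2220, for 1.36 (SE 0.09). Its reverse copy had DNA counts of 509, 364 and 311 and RNA counts of 684, 555 and 601, for -0.47 (SE 0.11). The difference was 1.84 (SE 0.14, adjusted p = 2.17e-13 by edgeR), or 3.57-fold, and by replicate it was 1.72, 2.01 and 1.34. It was also called higher forward and lower in reverse, as were 128 sequences (1.65%, series 2.2%), while 14 (0.181%, series 0.271%) were so the other way round.

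Seq_19206 followed, with a difference of 1.73 (SE 0.13) between 2.37 (SE 0.09) forward and 0.64 (SE 0.09) reverse. Seq_13923 had 2.02 (SE 0.10) and 0.34 (SE 0.10), a difference of 1.68 (SE 0.13), and Seq_15667 had 1.35 (SE 0.09) and -0.20 (SE 0.10), a difference of 1.55 (SE 0.13). These led their blocks, and all were active in the forward orientation alone.

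The largest reverse excess was that of Seq_18902. Its forward copy had DNA counts of 191, 113 and 135 and RNA counts of 440, 432 and 465, for 0.50 (SE 0.14). Its reverse copy had DNA counts of 172, 192 and 194 and RNA counts of 2491, 2361 and 2395, for 2.57 (SE 0.10). The difference was -2.07 (SE 0.17, adjusted p = 9.88e-13 by edgeR), or 4.20-fold, and by replicate it was -2.38, -1.62 and -1.74. The ranges of DNA counts of the 2 copies overlapped, and those of RNA counts did not.

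Seq_12795 followed with a difference of -1.71 (SE 0.25), from -0.09 (SE 0.22) forward on 22 barcodes to 1.63 (SE 0.15) reverse on 18. Seq_16351 was active either way, and its difference was -1.41 (SE 0.13), from 1.46 (SE 0.10) to 2.87 (SE 0.09). Seq_15578 differed by -1.35 (SE 0.13), from 0.45 (SE 0.10) to 1.81 (SE 0.09).

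The authors' deposited signal placed the members in the same way. Its median over tested members was 0.12, against -0.53 over the rest of the series, and it was 1 or more for 2475 members (15.9%), against 9.73% in the series. By block its median was 0.04, 0.13, 0.22 and 0.10. It uses no scaling other than library totals and rests on the same counts, so it is no separate measurement.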

How the data were processed

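Per the file headers, the DNA and RNA tables hold whole-number counts per copy and library. Per the labels, 3 replicates were made; the sources used here do not say whether reads or molecular identifiers were counted. The authors' deposited table of pooled replicates gives counts, CPM, their ratio and its log2 (the signal). The plasmid table lists the barcodes assigned to each copy. BWA 0.7.17 and the build hg38 appear in the submitters' processing notes, without a stated role.

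Activity was tested with edgeR 4.0.16 (quasi-likelihood, robust) in R 4.3.3 on the deposited counts, RNA against DNA, over all 134435 copies whose count reached 10 in every DNA library, with TMM factors on library totals and Benjamini-Hochberg adjustment. Orientation was tested as the interaction of molecule and orientation over 66769 sequences. Standard errors are the log2 value over the square root of F. Values per replicate divide TMM-scaled RNA CPM by DNA CPM, each plus 1, before log2 is taken. limma 3.58.1, DESeq2 1.42.0 and other settings were alternatives. Both tests were tried on simulated data.

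Named in each block of 2000 were the 3 highest and 3 lowest called copies, the sequence highest in its lower and lowest in its higher orientation, the largest called forward and reverse excess and the longest active run. Over all blocks the 2 largest excesses each way were named. Exceptions are marked in the text. The members, lists and tests were chosen with earlier results of these data known.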

Additional observations from a re-analysis of the deposited data

Results flagged for a closer look

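In 9 listed members no DNA library had a count, so they entered no comparison, and 7 of them had RNA counts. A count of 0 in the pooled DNA allows up to 3 counts, and the same share of the pooled RNA counts would be 8.76 counts, for counting error only. Summed RNA counts were above this limit in 6 copies: 23 in Seq_12964_fwd, 19 in Seq_14252_fwd, 18 in Seq_13941_rev, 16 in Seq_15643_rev, 12 in Seq_16046_fwd and 10 in Seq_13183_fwd. All 9 copies had 1 or 2 barcodes. A member with a few undetected DNA copies and a high RNA/DNA could pass it too, so RNA without DNA is not shown.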

How the results depend on the processing

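All 24 named copies and 8 named orientation differences kept their direction and an adjusted p under 0.05 in the refits in which they were tested (284 and 88). They were chosen as the most extreme called items of the main fit, and the refits use the same counts, so this is no separate support. With library size alone 4657 members were called lower, 2467 at least 2-fold higher and 441 at least 2-fold lower; active in both orientations were 10.0% of all sequences and 9.72%, 8.06%, 12.8% and 9.58% by block; block medians were 0.046, 0.11, 0.19 and 0.11. A 2-fold minimum left 4781 members higher, 14 lower, and 164 sequences forward and 57 reverse. Members at least 2-fold lower were 2 by limma and 23 to 31 with libraries left out. With a pseudocount of 0.1 CPM block medians were 0.47, 0.55, 0.65 and 0.54. With at least 50 DNA counts that of the third block was 0.56. Leaving out 1 replicate number, or DNA replicate 3 alone, gave medians of 0.39 in the first block, 0.45 in the second, 0.52 to 0.54 in the third and 0.44 to 0.46 in the last; forward calls were 1234 to 1670 and reverse calls 552 to 796, with fewer libraries by construction. The cause of the other shifts was not tested. The stretches of numbers were chosen after seeing the data. RNA and DNA libraries of the same number deviated together only weakly (r of 0.01, 0.03 and 0.03), although each correlated best with its own number. With the replicate block 9868 members were called higher and 1584 lower, and 1908 sequences forward and 867 reverse. Copies with few barcodes had a wider spread between replicates.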
